A study of Mus musculus with 7 samples.

Results

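Gonadal-type genes are genes with known roles in ovary or testis, here Inha, Amh, Fst, Amhr2, Fshr, Gata4, Wt1, Foxl2 and Cyp19a1. Gata4 and Wt1 among them are also known from organs outside the gonad. This section follows the transcripts of these genes in the mouse adrenal gland. The genes were chosen by name, with earlier results of these data known. Every probe set of the deposited value table that the platform annotation gives exactly 1 of these symbols was used. Of the 9 genes 8 were measured, each by 1 probe set, among 22180 genes in all, and Cyp19a1 was the single symbol of no probe set in that annotation. Whole adrenal glands were compared between 4 female mice aged 2 months that carry sf1:Cre and homozygous floxed Ezh2 (KO) and 3 wild-type (WT) female littermates of the same age. All 7 mice were on an uncontrolled mixed background, mainly C57BL/6 and SV129. The sources used here do not say whether the WT mice carried Cre or floxed alleles. Ezh2 encodes the Polycomb enzyme that methylates lysine 27 of histone H3. In sf1:Cre mice the recombinase is driven by control regions of Nr5a1, the gene of steroidogenic factor 1, which is active in steroidogenic cells of the adrenal cortex and also in somatic cells of the gonad.

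The adrenal cortex and the gonads arise from a common adrenogonadal primordium in the embryo. As these organs separate, the mouse adrenal cortex is known to switch off Gata4 and Wt1, which the gonadal somatic cells keep, while steroidogenic factor 1 stays active in both. In the gonad, inhibin and anti-Müllerian hormone are secreted by granulosa and Sertoli cells and belong to the transforming growth factor beta family. Inhibin is known to oppose activin, and follistatin binds activin.

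In KO glands 4 of the 8 measured genes were higher and 0 were lower. Inha, which encodes the inhibin alpha subunit, rose 5.26-fold, the transcription factor genes Gata4 and Wt1 rose 1.96-fold and 1.94-fold, and Amhr2, which encodes a receptor for anti-Müllerian hormone, rose 1.44-fold. Foxl2, a transcription factor of granulosa cells, lay 1.56-fold higher in KO and did not pass the test. Amh, Fshr and Fst, with log2 changes between -0.19 and -0.01, did not pass it either. Genes were called at an adjusted p under 0.05, by limma with Benjamini-Hochberg adjustment over all 22180 genes. Of all genes, 5.14% rose and 3.55% fell (8.69% together). With each array centred on the median of the genes tested, a scaling added after the data were seen, those shares were 4.53% and 5.99%, and rises made up 43.1% of the calls, against 59.1% on the deposited scale, and 4 of the 8 genes still rose and 0 fell. With each array centred on its median over all probe sets, the shares were 5.77% and 3.3%, and Foxl2 also passed. KO arrays were separate from WT arrays for 6 of the 8 genes (20.2% of all genes), 5 higher in KO (10.3% of all genes) and 1 lower in KO (9.86% of all genes). The median log2 change was 0.58 over the 8 genes and 0.0004 over all genes. In the unadjusted test 6 of the 8 genes had a p under 0.05, of which Fst alone was lower in KO, beside 22.8% of all genes (11.5% higher and 11.3% lower).

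**Figure D1:**
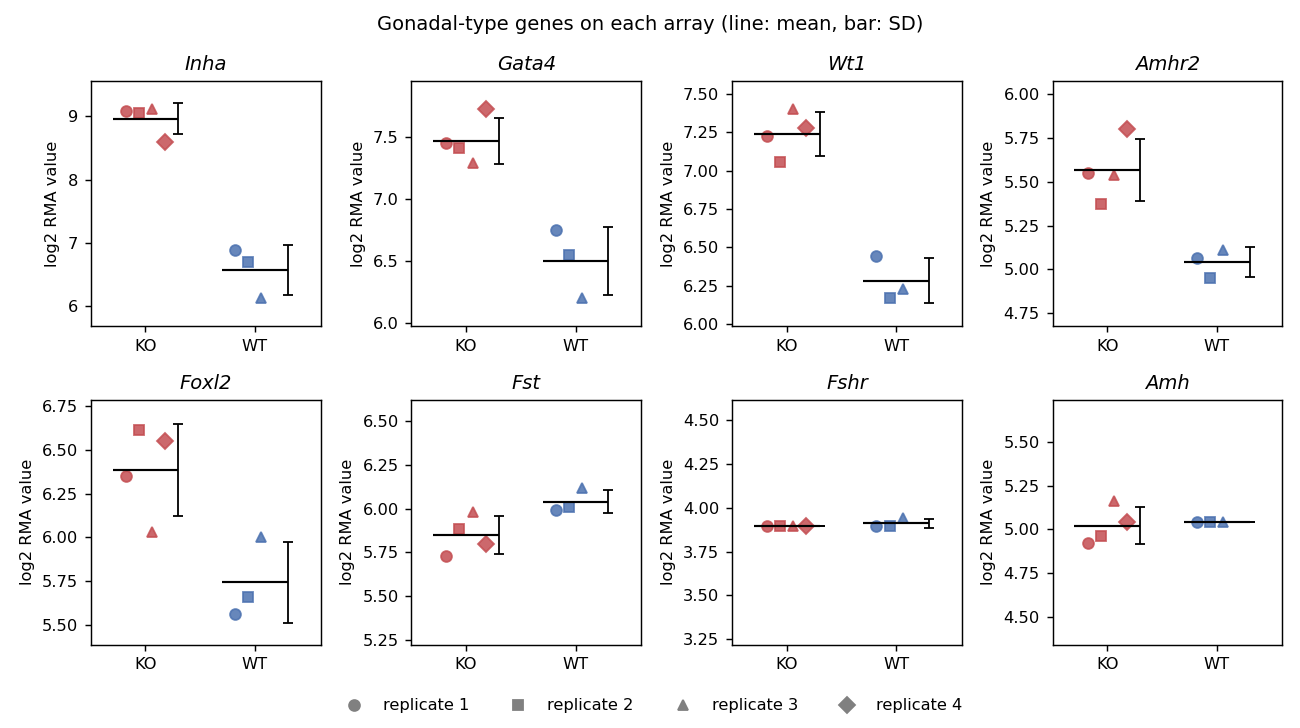
Log2 RMA value of each of the 8 measured genes (y axis, every panel with its own scale) on the 4 KO arrays (red) and 3 WT arrays (blue), with marker shape for the replicate, a line at the group mean and a bar for the SD. KO and WT arrays stand apart for Inha, Gata4, Wt1 and Amhr2, nearly touch for Foxl2 and Fst, and lie together for Fshr and Amh.

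All values below are the authors' log2 RMA values, in which background correction and quantile normalization came before the probes of a set were combined. Without detection calls, low values cannot be told from background, and levels of different genes are not compared. The whole gland was measured, and more cells of a type cannot be told apart from more RNA per cell. The array medians over all probe sets lay between 5.32 and 5.38. Ezh2 averaged 7.04 in KO and 7.08 in WT (log2 change -0.04, SE 0.07, adjusted p = 0.816 by limma), and the sources used here do not say which exons the probe set covers. The cortical marker Star, the cholesterol carrier of steroid synthesis, lay between 12.83 and 12.98 in KO and between 13.02 and 13.10 in WT, and the chromaffin enzyme gene Th lay between 11.64 and 11.91 in KO and between 10.73 and 10.84 in WT, both of them defining markers of the labelled tissue.

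Among the secreted factors, Inha changed most. Inha was at 9.08, 9.06, 9.11 and 8.60 on the 4 KO arrays, and at 6.88, 6.69 and 6.13 on the 3 WT arrays. The lowest KO array, replicate 4, was 1.72 log2 units above the highest WT array, a distance wider than the range within KO (0.52) or within WT (0.75). The mean was 8.96 ± 0.24 in KO (SD, n = 4) and 6.56 ± 0.39 in WT (SD, n = 3), and the log2 change was 2.40 (SE 0.20, 95% interval 1.92 to 2.87, adjusted p = 0.00161 by limma). Only 4 of the 22180 genes had a larger rise. With each array left out in turn the change lay between 2.18, without WT replicate 3, and 2.55, without WT replicate 1, and was called in all 7 fits.

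Amh, the hormone that makes the Müllerian ducts regress in male embryos and restrains follicle recruitment in the ovary, was at 4.92, 4.96, 5.16 and 5.04 in KO, and at 5.04 on each of the 3 WT arrays. KO arrays thus lay on both sides of the WT value. The same value stood on 4 of the 7 arrays, KO replicate 4 among them, as was so for at least 4 arrays in 14.6% of all genes and in 0 of the 1928 called ones. The log2 change was -0.02 (SE 0.06, 95% interval -0.16 to 0.12, adjusted p = 0.890 by limma). For the array value this interval leaves out a rise of the size seen for Amhr2. Whether the value stands above background is unknown, so this does not extend to the transcript.

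Fst, which encodes follistatin, was at 5.73, 5.89, 5.98 and 5.80 in KO, and at 5.99, 6.01 and 6.12 in WT. Each KO array was below each WT array, though KO replicate 3 and WT replicate 1 were 0.01 apart. The log2 change was -0.19 (SE 0.07, 95% interval -0.35 to -0.03, unadjusted p = 0.0257, adjusted p = 0.148 by limma), and no call was made under any of the 16 alternatives (adjusted p 0.0635 to 0.366).

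Of the receptors, Amhr2 passed the test and Fshr did not. Amhr2, the type II receptor through which anti-Müllerian hormone signals, was at 5.55, 5.37, 5.54 and 5.80 in KO, and at 5.07, 4.95 and 5.11 in WT. The groups were 0.26 apart at their nearest arrays, less than the range of 0.43 within KO. The mean was 5.57 ± 0.18 in KO (SD, n = 4) and 5.04 ± 0.08 in WT (SD, n = 3). The difference was 0.52 (SE 0.10, 95% interval 0.29 to 0.76, adjusted p = 0.0210 by limma). The call was lost when any of 5 arrays was left out, namely KO replicate 1 (adjusted p = 0.0533), KO replicate 3 (0.0575), WT replicate 1 (0.0633), WT replicate 2 (0.0879) or WT replicate 3 (0.0682). Over all 7 such fits the change lay between 0.45 and 0.59.

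Fshr, the receptor of follicle-stimulating hormone on granulosa and Sertoli cells, was at 3.90 on each of the 4 KO arrays, and at 3.90, 3.90 and 3.94 in WT. One value stood on 6 of the 7 arrays, as was so for 1.31% of all genes. The log2 change was -0.01 (SE 0.03, 95% interval -0.09 to 0.07, adjusted p = 0.852 by limma).

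The transcription factor genes Gata4 and Wt1 were close in the size of their change. Gata4, a zinc finger factor of gonadal somatic cells and of the heart, was at 7.45, 7.42, 7.29 and 7.72 in KO, and at 6.75, 6.55 and 6.20 in WT. The lowest KO array was 0.54 above the highest WT array. The mean was 7.47 ± 0.18 in KO (SD, n = 4) and 6.50 ± 0.28 in WT (SD, n = 3). The difference was 0.97 (SE 0.15, 95% interval 0.62 to 1.32, adjusted p = 0.00941 by limma). Without single arrays it lay between 0.82 and 1.09, was called each time, and had its highest adjusted p of 0.0423.

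Wt1, the Wilms tumour factor of the adrenogonadal primordium, of Sertoli and granulosa cells and of kidney podocytes, was at 7.23, 7.06, 7.40 and 7.28 in KO, and at 6.45, 6.17 and 6.23 in WT. The groups were 0.61 apart, more than the range of 0.34 within KO or 0.27 within WT. The mean was 7.24 ± 0.14 in KO (SD, n = 4) and 6.28 ± 0.14 in WT (SD, n = 3). The difference was 0.96 (SE 0.10, 95% interval 0.73 to 1.19, adjusted p = 0.00257 by limma). With single arrays left out it lay between 0.90 and 1.04 and was called in all 7 fits.

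Foxl2, a forkhead factor that maintains granulosa cell identity in the adult ovary, was at 6.35, 6.61, 6.03 and 6.55 in KO, and at 5.56, 5.66 and 6.00 in WT. Each KO array was above each WT array, but KO replicate 3 and WT replicate 3 were 0.02 apart. The mean was 6.39 ± 0.26 in KO (SD, n = 4) and 5.74 ± 0.23 in WT (SD, n = 3). The difference was 0.64 (SE 0.16, 95% interval 0.26 to 1.03, adjusted p = 0.0589 by limma). Foxl2 lay near the threshold, and its adjusted p was 0.0328 with a filter on low values, 0.0468 when arrays were quantile-normalized again, 0.0444 when each was centred on its median, 0.0478 with array weights and 0.0321 without KO replicate 3. Over all 16 alternatives it ranged from 0.0321 to 0.238. The filter took the mean over all 7 arrays, KO included. The WT mean of Foxl2 lay below the array medians of the genes tested (5.79 to 5.86), so its passing rested on the KO values.

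**Figure D2:**
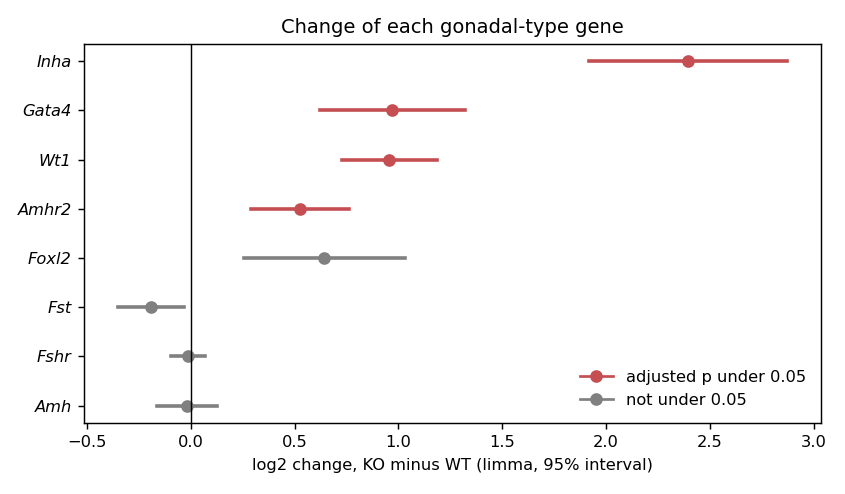
Log2 change, KO minus WT (x axis), of the 8 measured genes with its 95% interval from limma, in red where the adjusted p was under 0.05 and in grey where it was not. The interval of Inha, 1.92 to 2.87, lies above those of all other genes, and the intervals of Fshr and Amh hold 0.

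Cyp19a1, the aromatase that makes oestrogens in granulosa cells, was seen here only in the authors' deposited table, which gives a log2 fold change of 0.04 and an adjusted p of 0.851. For the other genes the authors' deposited table gives log2 fold changes of 2.37 for Inha, 1.03 for Gata4, 0.94 for Wt1, 0.52 for Amhr2 and 0.66 for Foxl2. The authors' deposited table has adjusted p values of 0.0132 for Amhr2 and 0.0708 for Foxl2, on the same sides of 0.05 as above. In the authors' deposited table Fst is at -0.26 (adjusted p = 0.110), Amh at 0.02 and Fshr at -0.21 (adjusted p = 0.215), and for Fshr that is a larger difference than the -0.01 computed here from its probe set. The sources used here do not state how that table joined probe sets to genes, nor its test.

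**Figure D3:**
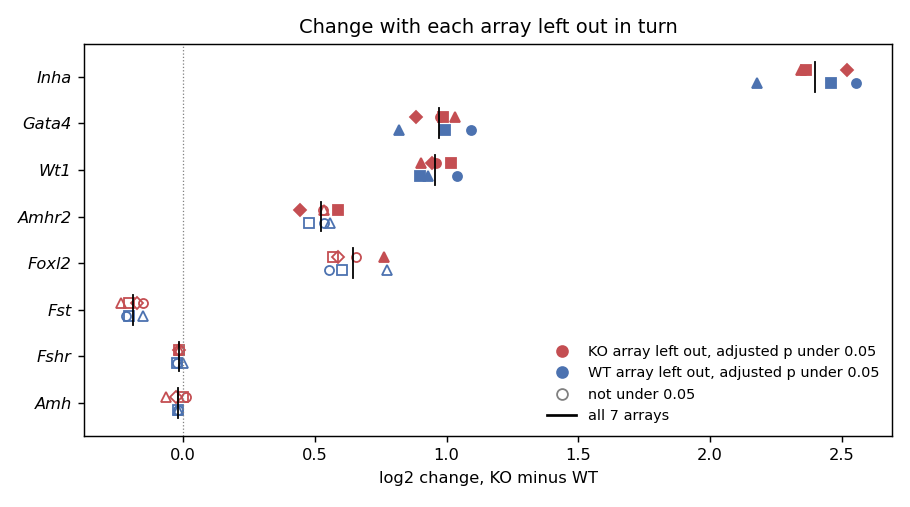
Log2 change, KO minus WT (x axis), of the 8 measured genes with each array left out in turn, in red for a KO array and in blue for a WT array, with marker shape for the replicate (circle 1, square 2, triangle 3, diamond 4). Filled markers have an adjusted p under 0.05, and the black line is the change with all 7 arrays. Inha, Gata4 and Wt1 are filled throughout, whereas Amhr2 is filled only without KO replicate 2 or 4 and Foxl2 only without KO replicate 3.

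The genes that were higher did not share an order of arrays within KO. Over the 5 genes with non-overlapping higher KO arrays, KO replicate 4 was highest for Gata4 and Amhr2 and lowest for Inha, and KO replicate 3 was highest for Inha and Wt1 and lowest for Gata4 and Foxl2. Among the WT arrays, replicate 1 was highest for Inha, Gata4 and Wt1, and replicate 3 was highest for Amhr2 and Foxl2. KO replicate 1 was neither highest nor lowest for any of the 5. The mean of the 8 genes lay between 6.28 and 6.34 on the KO arrays and between 5.60 and 5.70 on the WT arrays.

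Likeness of pattern was measured as the root mean square distance between mean-centred log2 values over the 7 arrays, which counts the group difference and the spread within groups alike. Between the called members it was smallest for Gata4 and Wt1 (0.20). The nearest genes to Wt1 were Mgp, which encodes a matrix protein that inhibits calcification (0.06), Mfap4, which encodes a microfibril-associated protein (0.07), and the signalling adaptor gene Gab2 (0.09). Mgp averaged 11.06 in KO and 10.21 in WT. Its arrays fell in the same order as those of Wt1 within both groups, which its choice by nearness over these same arrays favours. The nearest to Gata4 were the axon guidance receptor gene Robo2 (0.12), the chromaffin cell peptide gene Npy and the protocadherin gene Pcdhb6 (0.15 each). Those nearest to Amhr2 were Nptx1 (0.07), Vstm4 (0.07) and Zfp618 (0.08), and those nearest to Inha were Cxcr4 (0.23), Rhcg (0.27) and Slc6a5 (0.30). Each of these 12 genes was higher in KO by limma, as follows from the measure.

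Promoter windows are described for members that passed the test and members that did not, where a window was found. RefSeq windows on GRCm38.p6 were found for 5 of the 9 genes, Inha, Amhr2, Foxl2, Fshr and Cyp19a1, and were cut to the 250 bases before the annotated start. The windows of Inha and Amhr2 are both taken from a start inside the annotated gene, and that of Inha is not printed. Those of Amhr2, called higher, of Foxl2, higher without passing the test, and of Fshr, not called, are given on the gene's own strand. They lie at chr15:102445117-102445366 (plus strand, from a start inside the annotated gene), chr9:98955357-98955606 (plus strand) and chr17:89200676-89200925 (minus strand). Capitals mark the motifs sought.
Amhr2: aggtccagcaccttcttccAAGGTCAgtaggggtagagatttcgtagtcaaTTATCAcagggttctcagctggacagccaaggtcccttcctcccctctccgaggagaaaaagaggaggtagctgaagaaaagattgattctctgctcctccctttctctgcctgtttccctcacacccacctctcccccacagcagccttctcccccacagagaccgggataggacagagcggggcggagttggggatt
Foxl2: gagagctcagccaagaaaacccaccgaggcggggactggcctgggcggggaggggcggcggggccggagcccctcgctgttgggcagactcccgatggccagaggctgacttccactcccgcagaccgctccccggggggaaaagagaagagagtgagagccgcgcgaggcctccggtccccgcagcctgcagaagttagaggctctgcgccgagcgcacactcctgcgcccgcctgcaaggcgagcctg
Fshr: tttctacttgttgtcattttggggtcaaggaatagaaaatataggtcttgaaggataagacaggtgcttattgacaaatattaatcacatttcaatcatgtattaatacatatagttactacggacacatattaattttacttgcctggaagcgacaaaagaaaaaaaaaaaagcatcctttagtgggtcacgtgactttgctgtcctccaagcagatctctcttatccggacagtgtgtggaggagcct
The motifs, sought on both strands, were AAGGTCA (the half-site of steroidogenic factor 1), GATA sites in 4 spellings (AGATAA as one form, AGATAG as the next, TGATAA as a further form, TGATAG as the last) and TGACG (the half-site of a cyclic AMP response element). Amhr2 held AAGGTCA on its own strand, 231 to 225 bases before the start, a motif held by 4.08% of the 32851 RefSeq windows. It also held TGATAA on the opposite strand, 199 to 194 bases before the start, where 26.5% of all windows hold a GATA site. None of these letters was in the Foxl2 or Fshr window, nor in those of Inha and Cyp19a1, and TGACG, in 17.8% of all windows, was in none of the 5 genes' windows. The Inha window was cut from a start inside the gene, so absence there does not cover the bases before its outermost annotated start. The Amhr2 window too was cut from such a start, so its matches need not lie before the outermost one. Some of the Cyp19a1 windows also came from a start inside the gene. For Gata4 and Wt1, the other called members, no window was found. The count of CG pairs was 5 for Amhr2, 22 for Foxl2 and 4 for Fshr, beside a median of 6 (quartiles 2 and 16) over all windows. A match is a description of the letters, not of binding.

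Of the 8 genes beside the 4 called members on their chromosomes, the nearest measured protein-coding genes in RefSeq order and chosen after the members' values were seen, limma called 0, with 2 at an unadjusted p under 0.05. Over all genes these shares were 8.69% and 22.8%, so that such counts in 8 genes are near the background. Obsl1, the neighbour of Inha, averaged 7.39 ± 0.17 in KO (SD, n = 4) and 6.72 ± 0.34 in WT (SD, n = 3). The difference was 0.67 (SE 0.16, adjusted p = 0.0514 by limma). Its other neighbour Stk11ip had a log2 change of -0.12 (adjusted p = 0.353). Neil2 and Blk beside Gata4 had changes of -0.10 and -0.04, Eif3m and Them7 beside Wt1 had changes of -0.10 and 0.09, and Sp1 and Prr13 beside Amhr2 had changes of -0.03 and 0.16 (adjusted p = 0.161 for Prr13). Over the neighbours of all 8 measured members, 16 genes, limma called 1, Mocs2 beside Fst, which averaged 8.40 ± 0.09 in KO (SD, n = 4) and 8.80 ± 0.11 in WT (SD, n = 3; log2 change -0.40, adjusted p = 0.0156).

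Other genes of the same systems were called at a share near that of all genes. Across 3 lists of other gonadal somatic genes, of activin, inhibin and anti-Müllerian hormone signalling and of the adrenogonadal primordium, limma called 1 of 50 measured genes higher and 4 lower (10% together), beside 5.14% and 3.55% of all genes (8.69% together). Of 18 measured other gonadal somatic genes 0 rose and 1 fell, with a median log2 change of 0.04 (-0.01 with each array centred on the median of the genes tested). By unadjusted p, 6 of the 18 were under 0.05, 4 higher and 2 lower, beside 22.8% of all genes. The gene that fell was Fgf9, a growth factor that supports Sertoli cell fate, at 6.88, 6.91, 6.74 and 6.91 in KO, and at 7.33, 7.22 and 7.21 in WT (log2 change -0.40, SE 0.06, adjusted p = 0.00834). Esr2, the oestrogen receptor beta of granulosa cells, had a change of 0.36 (adjusted p = 0.102), and Rspo1, a Wnt enhancer of the fetal ovary, one of 0.33 (adjusted p = 0.181). Sox9 and Dmrt1, transcription factors of Sertoli cells, had changes of 0.06 and 0.02, and Cyp17a1, the enzyme of androgen synthesis, one of 0.10 (adjusted p = 0.685). Hsd3b6, a steroid dehydrogenase gene of Leydig cells and the adrenal glomerulosa, varied widely, at 6.23, 5.73, 8.32 and 6.32 in KO and at 8.89, 8.21 and 6.89 in WT (log2 change -1.34, SE 0.70, adjusted p = 0.312). Lhcgr and Prlr were seen only in the authors' deposited table, where the luteinizing hormone receptor gene Lhcgr has a log2 fold change of 0.75 (adjusted p = 0.0601) and the prolactin receptor gene Prlr one of -0.67 (adjusted p = 0.00155).

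**Figure D4:**
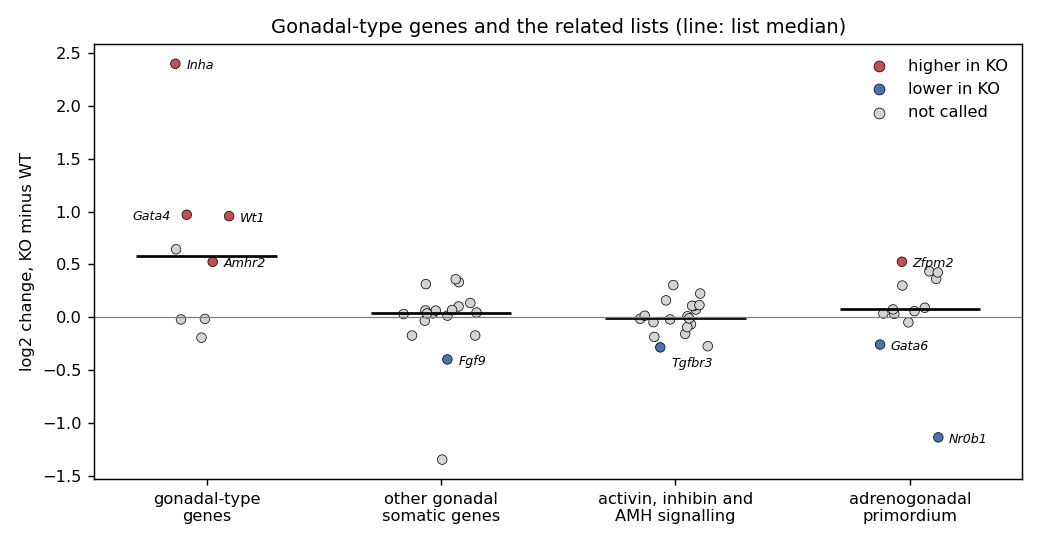
Log2 change, KO minus WT (y axis), of each measured gene of the gonadal-type set and of 3 related lists (x axis), in red where called higher, in blue where called lower and in grey where not called, with a line at the list median. The gonadal-type set has a median of 0.58, and the medians of the other lists lie between -0.01 and 0.08.

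Of the 19 genes of activin, inhibin and anti-Müllerian hormone signalling 0 rose and 1 fell, beside 5.14% and 3.55% of all genes. Their median log2 change was -0.01 (0.01 with arrays centred on their medians). In the unadjusted test 0 higher and 4 lower of the 19 had a p under 0.05, beside 11.5% and 11.3% of all genes. Inhba and Inhbb, the beta subunits that pair with the inhibin alpha subunit or with each other as activins, had changes of 0.31 (SE 0.18, adjusted p = 0.360) and 0.07 (SE 0.05, adjusted p = 0.440). Tgfbr3, betaglycan, the co-receptor that gives inhibin its affinity for activin receptors, was at 9.48, 9.37, 9.50 and 9.55 in KO, and at 9.74, 9.86 and 9.68 in WT. All KO arrays were below all WT arrays (log2 change -0.28, SE 0.06, adjusted p = 0.0350 by limma). The activin receptor genes Acvr2a and Acvr2b had changes of -0.27 (adjusted p = 0.121) and -0.05 (adjusted p = 0.522), and Bmpr1a, a type I receptor used by anti-Müllerian hormone, one of -0.16 (adjusted p = 0.159).

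Of 13 measured genes of the adrenogonadal primordium 1 rose and 2 fell, beside 5.14% and 3.55% of all genes, with a median log2 change of 0.08. By unadjusted p, 6 of the 13 were under 0.05, 4 higher and 2 lower, beside 11.5% and 11.3% of all genes. Zfpm2, the cofactor known as FOG2 that binds GATA4 in the gonad, was at 7.63, 7.64, 7.64 and 7.44 in KO, and at 7.14, 6.97 and 7.06 in WT (log2 change 0.53, SE 0.07, adjusted p = 0.00522 by limma). Its paralogue Zfpm1 had a change of 0.36 (adjusted p = 0.0638). Gata6, the GATA factor of the adult adrenal cortex, averaged 8.90 ± 0.08 in KO (SD, n = 4) and 9.15 ± 0.04 in WT (SD, n = 3), lower in KO where Gata4 was higher (log2 change -0.26, SE 0.05, adjusted p = 0.0312 by limma). This call was lost when arrays were centred on their medians over all probe sets or quantile-normalized again. Nr0b1 (Dax1), a repressor of steroidogenic factor 1 targets, fell by 1.13 on the log2 scale (SE 0.21, adjusted p = 0.0187), and Nr5a1 had a change of 0.44 (SE 0.16, adjusted p = 0.170). Without WT replicate 1 the change of Nr5a1 was 0.66 and was called (adjusted p = 0.00661). Lhx9 and Emx2, which the early gonad needs, had changes of -0.05 and 0.04. The calls of Tgfbr3, Gata6 and Nr0b1 were among those lost with single arrays left out. Without KO replicate 3, WT replicate 1, WT replicate 2 or WT replicate 3 limma called 1 of the 4 lower genes, Fgf9, and without KO replicate 2 it called 2, Fgf9 and Nr0b1.

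Markers of oocytes, kidney and mesothelium are given beside the 8.69% of all genes called and the 22.8% with an unadjusted p under 0.05, since lists this short hold few calls at those shares. Of 12 oocyte markers, among them Zp3, Gdf9 and Ddx4, limma called 0, with 0 at an unadjusted p under 0.05, and the list mean lay between 4.46 and 4.52 on the KO arrays and between 4.37 and 4.52 on the WT arrays. Their log2 changes ran from -0.16 to 0.12. Of 9 measured kidney markers 0 were called, with 1 at an unadjusted p under 0.05, and the podocyte gene Nphs1, which WT1 is known to regulate, had a change of -0.10 (adjusted p = 0.446). Their list mean lay between 5.26 and 5.34 in KO and between 5.27 and 5.40 in WT. Of 9 markers of mesothelium, a lining that expresses Wt1, 0 were called, with 1 at an unadjusted p under 0.05, and the list mean lay between 4.93 and 5.02 in KO and between 5.01 and 5.10 in WT.

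Markers of other cells of the gland are given beside the shares of all genes, 5.14% called higher and 3.55% called lower. In a list of 8 genes, 1 call is near those shares. Limma called 10 of 10 measured chromaffin cell markers higher, with a list mean between 10.61 and 10.85 in KO and between 9.72 and 9.88 in WT. Of 14 capsule and stroma markers 6 were called higher and 1 lower, with a list mean between 7.80 and 8.44 in KO and between 7.54 and 7.59 in WT. The median log2 change of that list was 0.48, and its changes ran from -0.38 for Nr2f1, the gene called lower, to 1.50 for Lum. Tcf21 and Gli1, called higher, had changes of 1.48 and 0.82. Among the 7 genes not called, Pdgfrb, Postn and Fbln1 had changes of 0.18, 0.12 and 0.11. Of 6 smooth muscle markers 2 were called higher, Acta2 and Actg2, with a list mean between 6.83 and 7.47 in KO and between 6.33 and 6.51 in WT. Of 8 markers of the steroidogenic cortex 1 was called higher, Scarb1, with a list mean between 11.74 and 11.89 in KO and between 11.72 and 11.74 in WT. Of the macrophage, endothelial and adipocyte markers limma called 0 higher, and 1 of 8, 2 of 8 and 0 of 8 lower. At an unadjusted p under 0.05 by limma, 4, 4 and 2 of them were lower and 0 higher. Over all genes 11.3% were lower and 11.5% higher at that threshold. Of the 8 cortex markers 4 were higher and 1 lower at it. The adipocyte list mean spread widely, between 6.94 and 8.69 in KO and between 8.27 and 9.52 in WT, and was lowest on KO replicate 1. The part of the chromaffin, stromal and smooth muscle markers in the rises of Inha, Gata4, Wt1 and Amhr2 was not tested.

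**Figure D5:**
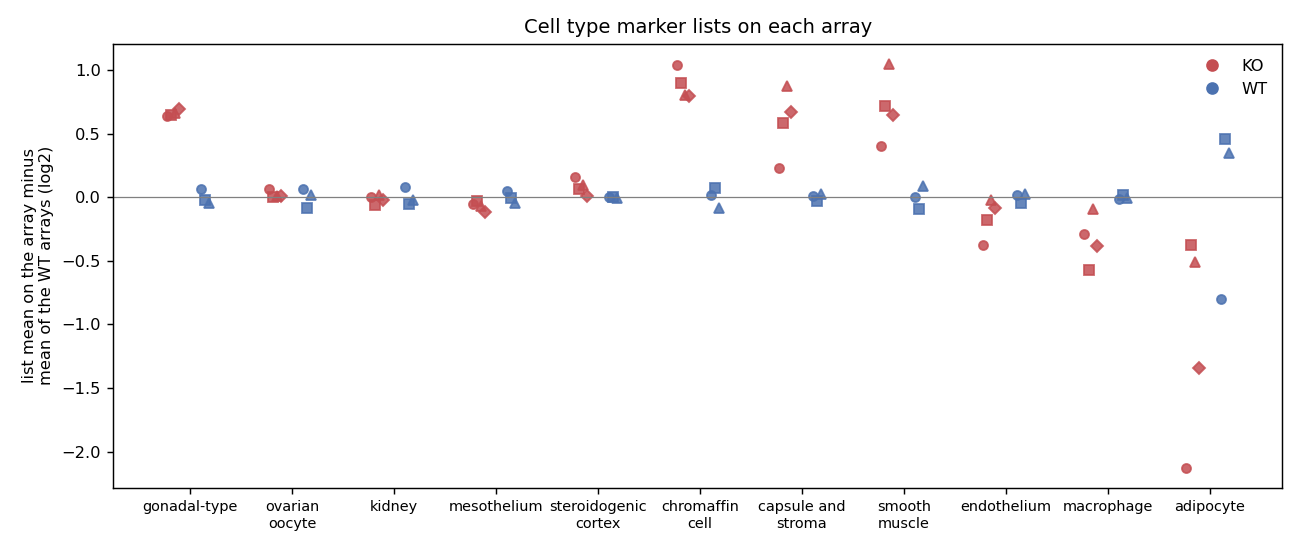
Mean of each marker list on an array minus its mean over the WT arrays (y axis, log2) for the 8 gonadal-type genes and 10 cell type lists (x axis), with KO arrays in red, WT arrays in blue and marker shape for the replicate (circle 1, square 2, triangle 3, diamond 4). The gonadal-type, chromaffin, capsule and smooth muscle means are higher on all KO arrays. The steroidogenic cortex mean is too, but its lowest KO array (11.7355) all but meets its highest WT array (11.735). The macrophage mean is lower on all KO arrays, whereas the oocyte, kidney, mesothelium, endothelial and adipocyte means overlap between groups.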

How the data were processed

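Total RNA of whole adrenal glands was hybridised to 1-colour Affymetrix arrays after WT PLUS labelling, per the labels' protocols. For 41345 probe sets on 7 arrays the authors deposited log2 expression values, made with RMA according to the submitters' processing notes. The sources used here do not give the RMA version or genome build. Per the file headers, the authors' deposited comparison table covers 28638 gene symbols, each with its log2 fold change, raw p-value and adjusted p-value.

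Probe sets with 1 symbol in the platform annotation (23521, against 1820 with several and 16004 unnamed here) were kept, and for the 1082 genes with several the one with the highest mean stood for the gene, giving 22180 genes, unfiltered for low values. KO was compared with WT by limma 3.58.1 (lmFit, eBayes; R 4.3.3), without covariates, two-sided, with Benjamini-Hochberg adjustment over all genes. The procedure was tested on simulated data. The number of arrays limits the precision, with 5 residual degrees of freedom. The labels call the arrays biological replicates. Alternatives covered low-value filtering (5 of the 8 genes pass), probe sets, the variance prior, scaling (one centring was added after the data were seen), weights per array, a block for the replicate number, and each array left out. Named genes were the members, members of fixed lists, and the 3 genes nearest in pattern to each called member, without predicted, RIKEN, olfactory, microRNA or small nucleolar genes. Members and lists were chosen with earlier results of these data known.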

Additional observations from a re-analysis of the deposited data

Results flagged for a closer look

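Among the KO values of the 8 measured genes and the 13 list means, of which 20 varied between KO arrays (Fshr did not), 1 stood apart from the other arrays of its group. Inha was at 8.60 on KO replicate 4, against 9.06 to 9.11 on the other 3 KO arrays, a gap of 0.889 of the KO range, which is above the 95% critical value of Dixon's test for 4 samples. Chance gives such a gap in about 5% of groups, and 20 groups could show one. On the same array Gata4 and Amhr2 had their highest KO values, 7.72 and 5.80. Without KO replicate 4 the log2 change of Inha was 2.52 (adjusted p = 0.00331 by limma), beside 2.40 with all arrays.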

How the results depend on the processing

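The counts of 4 higher and 0 lower gonadal-type genes were kept or moved by at most 1 under each of the 16 alternatives, with 3 to 4 higher and 0 lower when single arrays were left out, and 5 higher when arrays were quantile-normalized again, centred on their own medians or weighted. Without KO replicate 3 the count stayed at 4 with other members, as Foxl2 was called (adjusted p = 0.0321 by limma) and Amhr2 was not (0.0575). With the filter on low values the count was also 4, with Foxl2 in it and Amhr2 removed by the filter, as were Fshr and Amh. Foxl2 passed that filter on a mean over all arrays, KO included. Its WT mean of 5.74 lay below the array medians of the genes tested. Inha, Gata4 and Wt1 were called under each alternative (highest adjusted p 0.0211, 0.0423 and 0.0311). Near 0, the sign turned for Fshr with arrays centred on their own medians (0.00316) and for Amh after renewed quantile normalization (0.00109), and Amh ranged from -0.0658 to 0.0130 with single arrays left out; the cause was not tested. In the 3 related lists together, 2 genes were higher with the filter, 2 were lower after renewed quantile normalization and 0 were lower with the replicate block, and with single arrays left out 1 to 3 were higher and 1 to 3 lower, with 3 higher without WT replicate 1 (Zfpm2, Msi1, Nr5a1) and 2 higher without KO replicate 1 (Zfpm2, Nr2f2).

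Over all genes the called higher ranged from 594 to 945 and the called lower from 322 to 654 with single arrays, and so residual degrees of freedom, left out (lowest both times without WT replicate 3; 633 and 394 without WT replicate 2; 477 lower without KO replicate 2 and 515 without KO replicate 3), and 1329 were lower with arrays centred on the median of the genes tested. Centring moved the median log2 change of all genes by at most 0.05. With the replicate number as a replicate block, 523 genes were higher and 286 lower, and the gonadal-type count was 4 and 0. No WT array has the number of KO replicate 4, so that array added nothing to the changes in this fit. The change of Inha was 2.52 both with the block and without KO replicate 4. The block also leaves fewer residual degrees of freedom, and its fewer calls cannot be read as an effect of pairing. The block took the numbers of the sample titles, whose same-numbered arrays had deviations correlated at 0.07, -0.08 and -0.11, and not every array correlated best with its own number. The sample descriptions number the WT mice from 2 upward, and by those numbers the correlations were -0.07, 0.21 and -0.02, for which no block was fitted. Neither numbering is shown to pair the mice. No detection calls were used, so how far low values are limited by background is unknown here.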
